A study of Mus musculus and Rattus norvegicus with 37 samples.

Results

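The 10 genes described here, Stab1, Stab2, Lyve1, Clec4g, Fcgr2b, Pecam1, Kdr, Cdh5, Oit3 and Dnase1l3, are markers of the sinusoidal endothelial cells of the liver. They were chosen by name, with no measured value in the rule. The values were read from the mouse liver tables, in which 47929 gene names were kept, and from the rat liver tables, in which 28026 were kept. All 10 markers were found in both mouse tables. In rats 9 of the 10 were found, and Pecam1 was not analysed here. Every marker found had a mean above 10 normalized counts in each table, the minimum set for testing, so that none was lost to this filter.

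Liver sinusoidal endothelial cells line the capillaries between the plates of hepatocytes. They have open pores and no continuous basement membrane, and they clear waste molecules from the blood through a set of scavenger receptors. Stab1 and Stab2 encode stabilins, receptors that take up modified proteins and, for Stab2, hyaluronan. Lyve1 encodes a hyaluronan receptor that is also used as a marker of lymphatic vessels, and both Lyve1 and Stab1 are known from some macrophages. Clec4g encodes a C-type lectin and Fcgr2b the inhibitory Fc receptor that takes up immune complexes. Pecam1, Cdh5 (VE-cadherin) and Kdr (VEGF receptor) belong to endothelial cells in general. Dnase1l3 encodes a secreted DNase, and Oit3 a zona pellucida domain protein of the liver.

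The mice received 1 subcutaneous injection of saline or of LNA29, which combines locked nucleic acid inhibitors against miR-29a and against miR-29b and miR-29c, each at 20 mg/kg, and their livers were taken 7 days later in the fed state. The WT/Floxed mice (n = 8 with LNA29, n = 5 with saline) comprised 7 wild-type C57BL/6J mice and 6 floxed mice, which the authors pooled after leaving out 1 floxed mouse given saline. Mice labelled L-Sirt1 KO (n = 4 with LNA29, n = 4 with saline) carry a liver-specific deletion of Sirt1, a deacetylase gene, on the same strain background. All mice were female. The C57BL/6J mice were 9 to 11 weeks old, and the floxed mice and their L-Sirt1 KO littermates 15 to 20 weeks. The rats were male. Zucker Fatty rats (ZFR, fa/fa, with a mutated leptin receptor, n = 4) and Zucker Lean rats (ZLR, n = 4) were 5.5 months old. A second set of ZFR, 3 months old, received BT2, an inhibitor of branched-chain ketoacid dehydrogenase kinase, at 20 mg/kg daily for 1 week (n = 4) or its vehicle dimethylsulfoxide (n = 4). The Cre driver of the deletion is not named in the sources used here. Where the labels do not say that libraries come from separate animals, p-values measure only the spread between these libraries.

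The level of a gene is given as a DESeq2-normalized count, with each of the 4 tables normalized on its own. The mouse libraries held an estimated 42.6 to 78.0 M reads, and 1 read was worth 0.746 to 1.37 normalized counts. The rat libraries held 0.188 to 58.5 M reads, and 1 read was worth 0.0322 to 10.5 normalized counts. The 4 rat libraries under 0.5 M reads were ZLR replicates 3 and 4, vehicle replicate 4 and BT2 replicate 4. Sirt1 itself stood between 492.7 and 699.1 normalized counts in WT/Floxed mice and between 535 and 617 in mice labelled L-Sirt1 KO. A count over the whole gene cannot show the loss of single exons, so that label is not checked by it. The tissue label was in keeping with its markers, since the 9 hepatocyte genes of a marker list summed to at least 4365700 normalized counts in every mouse library and at least 170944 in every rat library.

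LNA29 inhibits the miR-29 family, so the mature miR-29 sequences of the mouse (RefSeq, GRCm38.p6) are shown first. The capitals mark the seed, bases 2 to 8, which was the same in all 3.
miR-29a-3p: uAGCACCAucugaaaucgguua
miR-29b-3p: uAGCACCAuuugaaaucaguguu
miR-29c-3p: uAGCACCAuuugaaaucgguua
Over their shared 22 bases miR-29a-3p and miR-29c-3p differed at 1 position, miR-29b-3p and miR-29c-3p at 3, and miR-29a-3p and miR-29b-3p at 4. The match to this seed, TGGTGCT on the coding strand, was searched in the annotated 3′ UTRs of the members (GENCODE M21, GRCm38). It was found in 1 of the 10 members, Stab2, which is the reason for printing its site. Among 21020 protein-coding genes with an annotated 3′ UTR the match was held by 2905, or 13.8%, and the 8-base form TGGTGCTA by 629, or 2.99%. The longest 3′ UTRs of the members ran from 134 bases in Stab1 to 3226 bases in Dnase1l3, against a median of 961 bases over all these genes.
Stab2 3′ UTR: caccttccagaTGGTGCTtggcctgttct
The 7 bases in capitals lie at chr10:86841355-86841361 on the minus strand and begin 241 bases after the stop codon. None of the 8-base form was found in a member. A match is a stretch of letters and does not show that the miRNA acts there.

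In mice the members differed widely in level. Per kilobase of exon (GENCODE M21), Clec4g was highest in the saline-treated WT/Floxed mice, with 1296 ± 109 normalized counts per kb (SD, n = 5), and did not overlap with the next gene. Dnase1l3 followed with 736 ± 133, Oit3 with 563 ± 189 and Fcgr2b with 501 ± 67.1. Cdh5 had 324 ± 77.1, Kdr 266 ± 49.3, Stab2 235 ± 33.6 and Stab1 199.99 ± 51.3. Pecam1 (152 ± 45.6) and Lyve1 (117 ± 30.7) were lowest. From Dnase1l3 downwards each gene overlapped with its neighbour in this order. In the saline-treated mice labelled L-Sirt1 KO the first place was again held by Clec4g (1501 ± 42.8, n = 4), and Lyve1 stood above Pecam1, with 193 ± 55.0 against 156 ± 14.4 normalized counts per kb. No order is given for rats, for which no exon lengths were used.

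**Figure D1:**
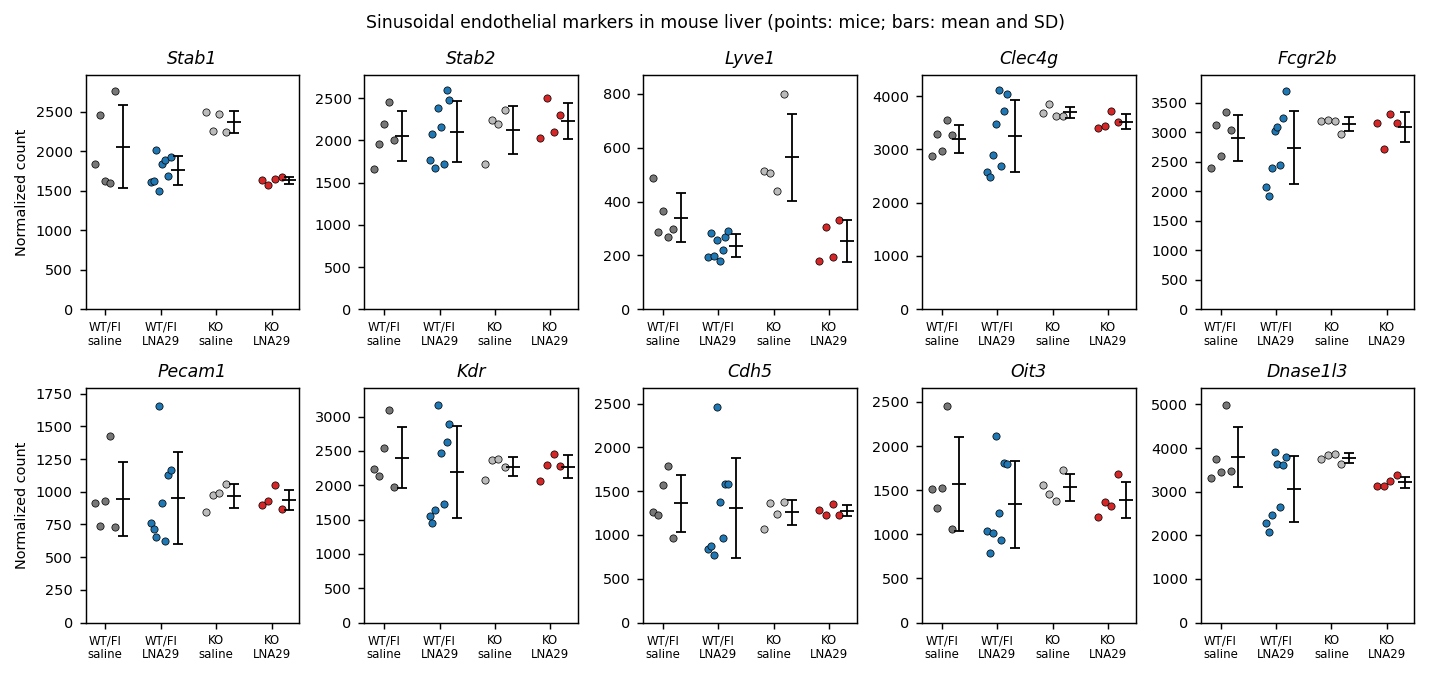
Normalized counts (y axis, from 0) of the 10 members in the WT/Floxed (WT/Fl) mice and the mice labelled L-Sirt1 KO, with saline or LNA29. Points are single mice and bars the mean and SD. Stab1 and Lyve1 of the LNA29-treated mice labelled L-Sirt1 KO lie below all of their saline-treated counterparts, whereas in WT/Floxed mice the groups overlap for every member.

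Stab1 and Lyve1 were the members called in mice, and the other 8, Stab2 included, were called in neither mouse table. A gene was called in mice when its p-value was under 0.05 before and under 0.2 after adjustment, its fold change exceeded 1.2 and its mean exceeded 50 normalized counts. Of the 10 members 1 was called in WT/Floxed mice, which was Lyve1, against 4.35% of the 15811 genes tested. In mice labelled L-Sirt1 KO 2 of 10 were called, Stab1 and Lyve1, against 1.87% of the 15885 genes tested. All of these were lower with LNA29. Because whole livers were sequenced, fewer cells of a type and less of an RNA per cell cannot be told apart from one gene's count. Beside the calls in mice labelled L-Sirt1 KO, the general endothelial members Kdr, Cdh5 and Pecam1 had log2 fold changes of 0.00063, 0.02 and -0.05. Of 24 other general endothelial genes, 0 were called lower, 1 was called higher and 11 were above 0. Of 9 other sinusoidal genes, 1 was called lower, Mrc1 (-0.33), and 1 was above 0. General endothelial genes are not particular to sinusoidal cells, and a change in cell number was not tested.

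Stab1 (ENSMUSG00000042286, chromosome 14 of GRCm38, 31139013 to 31168641, minus strand) was called only in the mice labelled L-Sirt1 KO when the tables were taken whole. In the mice labelled L-Sirt1 KO its normalized counts were 1640, 1570, 1649 and 1672 with LNA29, in the order of the replicate numbers, and 2501, 2251, 2476 and 2238 with saline. All 4 treated mice lay below all 4 controls, and the treated mice spanned a ratio of no more than 1.07 between highest and lowest. The log2 fold change was -0.53 (SE 0.08, limma adjusted p = 0.0280), from 2367 ± 142 to 1633 ± 44.1 (SD, n = 4 each). The exact two-sided permutation test gave p = 0.0286, the smallest value that 4 against 4 libraries can give. Within the 3 flow cells, each with 1 or 2 libraries a group, the difference was -0.64, -0.45 and -0.49 on the log2 scale. With any 1 of the 8 libraries left out the call held, with adjusted p-values from 0.0655 to 0.110. Stab1 shares 112 bases of exon with Nt5dc2 on the opposite strand, and the strand setting of the counting is not given in the sources used here. Such an overlap with a gene on the other strand was also found for Stab2 (141 bases), Clec4g (146 bases) and Fcgr2b (155 bases), so that reads of either gene of a pair may be counted in these 4 members.

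Stab1 was not called in WT/Floxed mice. Its counts with LNA29 had a lowest value of 1496, a median of 1759 and a highest value of 2014, and those with saline were 1839, 2463, 1627, 1592 and 2766. The groups overlapped, with a log2 fold change of -0.20 (SE 0.13, limma adjusted p = 0.581) and an exact two-sided permutation p = 0.196. Within the 3 flow cells the difference was -0.29, 0.09 and -0.22. In the flow cell with 0.09 the only saline library was wild-type (1627). Its LNA29 libraries came from 1 wild-type mouse (1496) and from floxed mice, so that background was not balanced there. Nor was it balanced in the flow cell with -0.29. Wild-type mice (1613.5 and 1626) and a floxed mouse (2014) given LNA29 stood there against 1 wild-type (1839) and 1 floxed mouse (2463) given saline. In the flow cell with -0.22 each treatment had 1 wild-type and 1 floxed mouse. The saline values lay in separate ranges by background, since the 3 wild-type mice had 1592 to 1839 and the 2 floxed mice 2463 and 2766. With the wild-type mice alone (n = 4 and 3) the log2 fold change was -0.07 (adjusted p = 0.844), and with the floxed mice alone (n = 4 and 2) it was -0.45 (adjusted p = 0.122), which passed the call. Both of these fits were added after the values had been seen. A planned fit of the whole table with background as a covariate gave a log2 fold change of -0.24 (limma adjusted p = 0.146). This adjusted p-value was under 0.2, but Stab1 was still not called, because its fold change stayed below the limit of the call. The next 2 comparisons of the backgrounds were, like the fits by background, added after the values had been seen. The difference between the 2 backgrounds in their response was -0.38 (SE 0.12, limma adjusted p = 0.525), and 1 of the 15811 genes was called for such a difference. Treatment set aside, Stab1 was higher in the floxed mice by 0.40 (SE 0.08, limma adjusted p = 0.0151), where 25.7% of the genes tested had an adjusted p-value under 0.2. The labels do not give the age or the site of the wild-type mice, so these cannot be told apart from background.

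**Figure D2:**
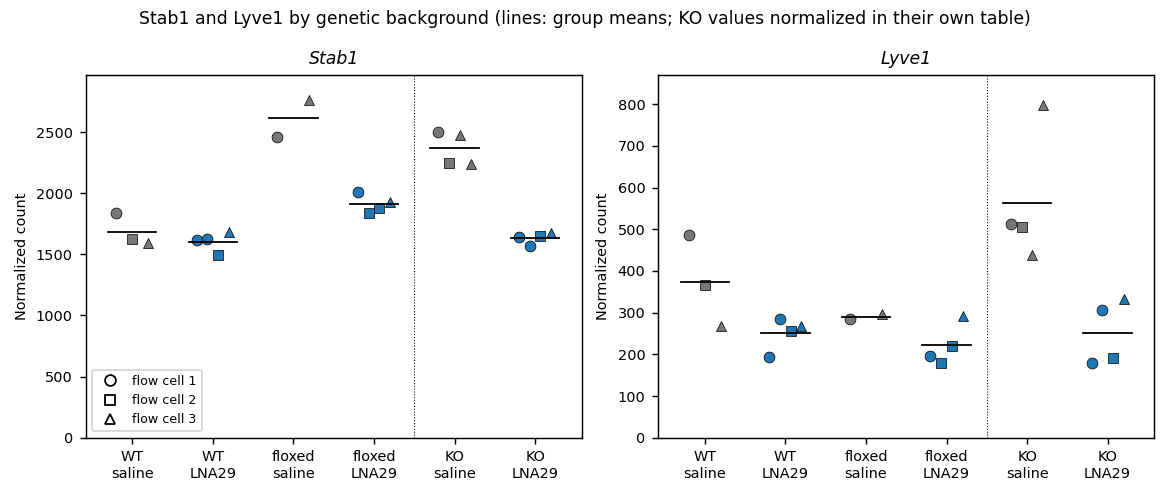
Normalized counts (y axis, from 0) of Stab1 and Lyve1 in single mice, separated by genetic background and treatment. Marker shapes show the 3 flow cells and lines the group means. For Stab1 the floxed saline mice (2463 and 2766) lie above the 4 floxed LNA29 mice, while the wild-type mice of both treatments overlap. The mice labelled L-Sirt1 KO (right of the dotted line) were normalized in a table of their own.

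Lyve1 (ENSMUSG00000030787, chromosome 7, 110850607 to 110863239, minus strand) was lower with LNA29 in both tables. In the mice labelled L-Sirt1 KO its counts were 178, 306, 192 and 332 with LNA29 and 513, 505, 438 and 799 with saline, so that the groups did not overlap. The log2 fold change was -1.17 (SE 0.25, limma adjusted p = 0.115), and the exact two-sided permutation test gave p = 0.0286, the smallest possible. The difference was negative in each flow cell (-1.13, -1.39 and -0.83). The call was lost with the flow cell as a covariate (adjusted p = 0.251), without LNA29 replicate 3 (adjusted p = 0.262) and without saline replicate 4, the highest library (log2 fold change -0.99, adjusted p = 0.219).

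Lyve1 of the WT/Floxed mice had a lowest value of 179, a median of 238 and a highest value of 291 with LNA29, and 486, 285, 366, 268 and 296 with saline. Of the 8 treated mice, 6 lay below every control. The log2 fold change was -0.51 (SE 0.16, limma adjusted p = 0.165), with an exact two-sided permutation p = 0.0109. The within-flow-cell differences were -0.75, -0.75 and -0.015, the last of these from 2 against 2 libraries. This call was lost in 6 of the 13 fits that left out 1 library, namely LNA29 replicates 3, 5, 6 and 7 and saline replicates 1 and 3. Without saline replicate 1, the highest library, the log2 fold change was -0.37 (adjusted p = 0.352). With the flow cell as a covariate the adjusted p was 0.231. Wild-type mice alone gave -0.55 (adjusted p = 0.527) and floxed mice alone -0.41 (adjusted p = 0.394), and neither passed the call.

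The difference of the LNA29 response between genotypes was tested as an interaction term, by which 0.0449% of 15601 genes were called at an adjusted p-value under 0.2. None of the 10 members was called by limma, and 1, Lyve1, had an unadjusted p-value under 0.05. For Lyve1 the response in mice labelled L-Sirt1 KO minus that in WT/Floxed mice was -0.66 (SE 0.30, 95% interval -1.28 to -0.04, limma adjusted p = 0.501). For Stab1 it was -0.34 (SE 0.18, 95% interval -0.71 to 0.03, limma adjusted p = 0.590), which passed the call only with sample quality weights (-0.43, adjusted p = 0.157). A larger response in the mice labelled L-Sirt1 KO was therefore not shown for either gene. The WT/Floxed side pools wild-type and floxed mice, so the term cannot tell genotype apart from background or age. For Stab1 the log2 fold change was -0.07 in wild-type, -0.45 in floxed and -0.53 in L-Sirt1 KO labelled mice.

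Stab2, the only member with a seed match, did not differ between treatments beyond the spread of the mice. Among WT/Floxed mice its counts had a lowest value of 1668, a median of 2120 and a highest value of 2602 with LNA29, against 1662, 1956, 2197, 2452 and 2002 with saline. The log2 fold change was 0.03 (95% interval -0.24 to 0.30, limma adjusted p = 0.952). Mice labelled L-Sirt1 KO had 2030, 2508, 2103 and 2300 with LNA29 and 1717, 2238, 2191 and 2359 with saline (log2 fold change 0.08, 95% interval -0.19 to 0.34, limma adjusted p = 0.843). The groups overlapped in both tables.

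The lectin and Fc receptor were likewise not called. Clec4g gave a log2 fold change of 0.0034 (95% interval -0.27 to 0.28) for WT/Floxed mice and of -0.07 (-0.23 to 0.09) for mice labelled L-Sirt1 KO. For Fcgr2b the values were -0.11 (-0.43 to 0.21) and -0.03 (-0.22 to 0.16). Reads of Fcgr2b could be divided with related Fc receptor genes in the counting. Among the general endothelial members Kdr stood at -0.17 (-0.59 to 0.25) and 0.00063 (-0.19 to 0.19), Cdh5 at -0.14 (-0.68 to 0.41) and 0.02 (-0.20 to 0.25), and Pecam1 at -0.02 (-0.51 to 0.47) and -0.05 (-0.28 to 0.18). The intervals of these 5 genes were narrower in the mice labelled L-Sirt1 KO than in WT/Floxed mice.

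Of the members that encode secreted proteins, Dnase1l3 (ENSMUSG00000025279, chromosome 14, 7964533 to 7994573, minus strand) was not called in either table. In the mice labelled L-Sirt1 KO its counts were 3121, 3123, 3248 and 3389 with LNA29 and 3760, 3845, 3857 and 3627 with saline, and the groups did not overlap. Its log2 fold change was -0.23 (SE 0.07, limma adjusted p = 0.263), and the exact two-sided permutation test gave p = 0.0286, the smallest possible. In WT/Floxed mice it was -0.34 (SE 0.17, limma adjusted p = 0.420), with a range of 2071 to 3919 with LNA29 and of 3313 to 4979 with saline. Dnase1l3 was lower with LNA29 within all 3 flow cells of both tables, by -0.63, -0.04 and -0.17 in WT/Floxed mice and by -0.27, -0.24 and -0.14 in the others. Oit3 had log2 fold changes of -0.25 (limma adjusted p = 0.739) and -0.15 (adjusted p = 0.699), and its groups overlapped. In mice labelled L-Sirt1 KO the groups of 3 members (Stab1, Lyve1 and Dnase1l3) did not overlap, which was the case for 6.95% of all genes tested. For WT/Floxed mice this held for 0 members and for 1.51% of genes.

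**Figure D3:**
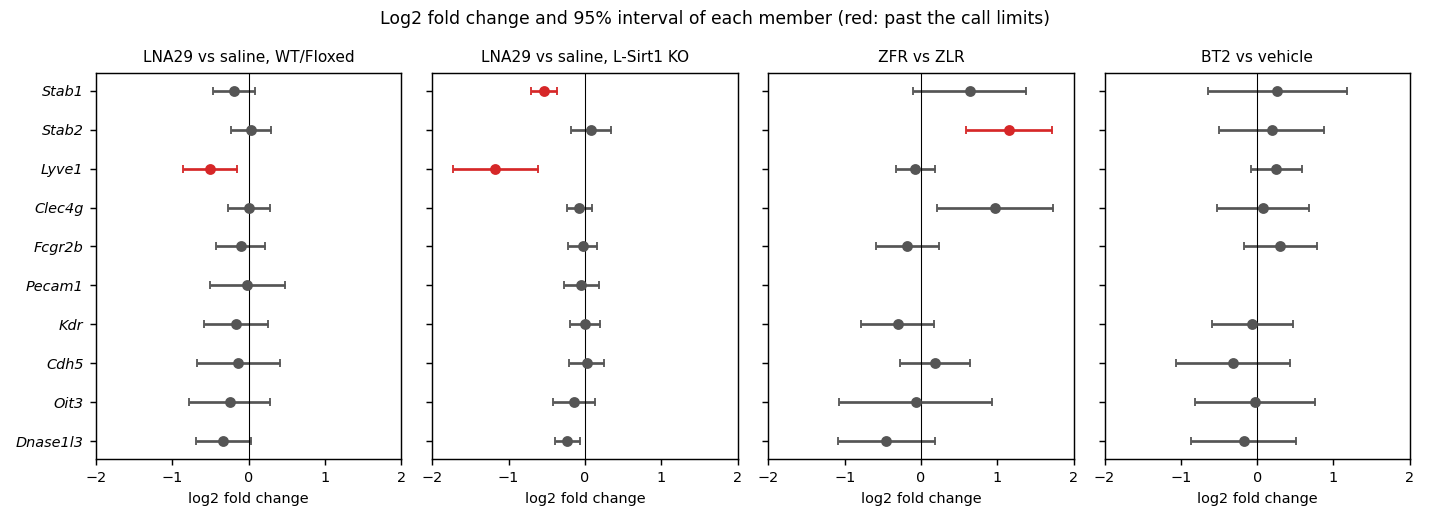
Log2 fold change (x axis) with its 95% interval for each member (y axis) in the 4 comparisons. Red points passed the call of their comparison, namely Lyve1 in WT/Floxed mice, Stab1 and Lyve1 in mice labelled L-Sirt1 KO, and Stab2 in ZFR against ZLR. Pecam1 was not analysed in rats.

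The median over all 10 members was -0.15 on the log2 scale for WT/Floxed mice, where 8 of 10 were below 0, and -0.06 for mice labelled L-Sirt1 KO, where 7 of 10 were below 0. The median over all genes tested was 0.0017 and -0.0027. For WT/Floxed mice the members' median moved between -0.21 and -0.06 with 1 library left out. It was -0.18 in wild-type mice alone, with 9 of 10 below 0, and 0.02 in floxed mice alone, with 5 of 10 below 0. The members were not independent of each other in these values. After the group means had been subtracted, 35 of the 45 pairs of members were positively correlated over the 21 mouse libraries, with a median Pearson's r of 0.65. The highest values were those of Kdr with Cdh5 (r = 0.942) and of Kdr with Dnase1l3 (r = 0.935). Stab1 was the exception, with a median r of -0.34 with the other members and a lowest value of -0.57 with Pecam1, and Lyve1 had a median r of 0.12. Within WT/Floxed mice alone (13 libraries) the median r over pairs was 0.71, and within the mice labelled L-Sirt1 KO (8 libraries) it was 0.04. These correlations are a description, since the libraries share flow cells and a normalization. The groups pool wild-type and floxed mice, so differences between these backgrounds remained in the values. Floxed minus wild-type mice gave 0.40 for Stab1 and -0.39 for Pecam1 (limma adjusted p = 0.0151 and 0.248, treatment as a covariate). The part of background in the correlations of Stab1 was not tested.

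**Figure D4:**
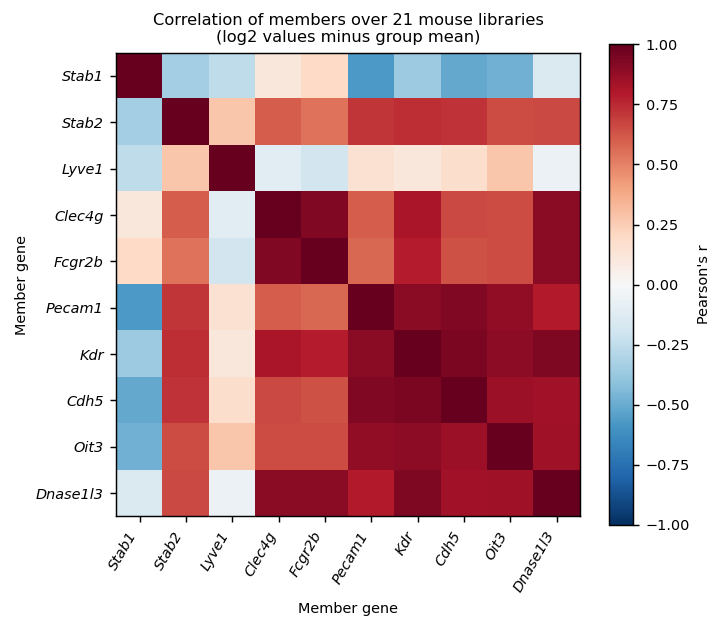
Pearson's r between members over 21 mouse libraries, computed on log2 values minus their group mean (colour scale from -1 to 1). The 8 members other than Stab1 and Lyve1 form a block of positive values, and Stab1 is negative with 7 of the 9 other members.

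The summed level of the 10 members differed 1.74 times between the lowest and the highest of the 13 WT/Floxed libraries (14298 to 24946 normalized counts) and 1.16 times among the 8 libraries labelled L-Sirt1 KO (18972 to 22052). The mean of the members' log2 values was between 10.24 and 10.29 in the 3 LNA29-treated WT/Floxed libraries of 1 flow cell and between 10.33 and 10.97 in the other 5 treated libraries. The 2 saline-treated WT/Floxed libraries of that same flow cell were both at 10.67, and the WT/Floxed saline libraries as a whole had 10.60 to 10.99. The non-member genes whose values followed the members' mean most closely over the 21 libraries were Cnr2 (r = 0.958), Flt4 (0.952), F8 (0.947), Adgrl4 (0.946), Aqp1 (0.945), Ptprb (0.944), Itpkb (0.944) and Bmp2 (0.942), among 12759 genes. Of these, Flt4, a VEGF-C receptor, F8, coagulation factor VIII, and Bmp2, a ligand that induces hepcidin, stand in the list of other sinusoidal genes.

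Other endothelial lists changed in few genes. In WT/Floxed mice 0 of 9 other sinusoidal, 0 of 24 general endothelial and 0 of 6 continuous vessel genes were called, and 1 of 12 zonal and angiocrine genes was. The called gene was Dkk3, a Wnt modulator, which rose by 0.36 on the log2 scale (SE 0.11, limma adjusted p = 0.161). The largest log2 fold changes in the other 3 lists were not called, and they were 0.49 for Cd93, -0.19 for Gja5 and -0.27 for F8. In mice labelled L-Sirt1 KO Mrc1, the mannose receptor of sinusoidal cells and macrophages, fell by 0.33 (SE 0.08, limma adjusted p = 0.148), from a range of 2269 to 2596 with saline to 1834 to 1998 with LNA29. Cd93, an endothelial surface receptor, rose by 0.71 (SE 0.14, limma adjusted p = 0.0887), from 242 to 273 with saline to 347 to 535 with LNA29. These were 1 of 9 other sinusoidal and 1 of 24 general endothelial genes. No gene was called of the 6 continuous vessel genes (largest log2 fold change 0.44 for Cav1) or of the 12 zonal genes (0.51 for Kit).

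Markers of macrophages were read beside the members. In mice labelled L-Sirt1 KO 2 of 11, Clec4f (-0.29) and Vsig4 (-0.54), were called lower, against 1.87% of all genes called in either direction. Of the 11, 10 had a log2 fold change below 0, with a median of -0.31, and Marco had 0.71 (adjusted p = 0.587). The list's summed level was 18994 to 23483 normalized counts with LNA29 and 24198 to 28326 with saline. Of the same 11, 0 were called in WT/Floxed mice, 10 were below 0, the median was -0.33, and the summed level was 10836 to 55271 with LNA29 and 19671 to 32993 with saline. None of the 11 was at 0 in a mouse table. Over the 21 libraries the macrophage markers had a median r of 0.85 with the members' mean. It was 0.84 for the other sinusoidal genes, 0.72 for the general endothelial genes and 0.0051 for all genes. The members' mean does not stand for Stab1, whose r with it was -0.30, and Lyve1 had a median r of 0.12 with the other members. The part of macrophages in the values of Stab1, Lyve1 and Mrc1 was not tested. Of the 8 stellate, 4 lymphatic, 6 cholangiocyte, 6 lymphocyte and 6 red blood cell markers none was called in either mouse table, and of the 9 hepatocyte markers 2 were called in WT/Floxed mice, 1 in each direction.

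In the livers of ZFR, a model of obesity, 1 of the 9 members was called against ZLR at an adjusted p-value under 0.05, compared with 4.25% of the 8633 genes tested. It was Stab2, which rose to 69.9, 44.7, 75.2 and 85.6 normalized counts in ZFR from 34.0, 33.6, 21.1 and 31.3 in ZLR. The groups did not overlap. Stab2 differed by 1.16 on the log2 scale (SE 0.25, limma adjusted p = 0.0330), from 30.01 ± 6.08 to 68.8 ± 17.4 (SD, n = 4 each), and the exact two-sided permutation test gave p = 0.0286, the smallest possible. The 2 lowest-depth ZLR libraries rested on 2 and 3 reads of Stab2. Among the 3 deepest libraries (46.1 to 58.5 M reads), which had 779 to 2171 reads of the gene, the ZLR values were 34.0 and 33.6 and the ZFR value was 69.9. Without the libraries under 0.5 M reads, an alternative added after the data were seen, the log2 fold change was 0.96 (adjusted p = 0.0570). Within the flow cells it was 1.604 and 0.71.

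The call on Stab2 in ZFR was close to its limit. It was lost with the flow cell as a covariate (adjusted p = 0.0515), with the replicate number as a block (0.0999) and with no minimum mean (0.0759). It was also lost in 5 of the 8 fits that left out 1 library, namely ZLR replicates 1 and 2 and ZFR replicates 1, 3 and 4, with log2 fold changes over all 8 fits from 1.00 to 1.35 and adjusted p-values from 0.0219 to 0.111. Clec4g had 43.3, 38.8, 31.3 and 54.4 in ZFR and 25.2, 31.3, 10.5 and 20.9 in ZLR. Its log2 fold change was 0.97 (SE 0.34, limma adjusted p = 0.176), and it was not called. The groups were parted only by 31.337 in ZFR replicate 3 against 31.307 in ZLR replicate 2. That gap is less than 1 read, which was worth 2.09 normalized counts in ZFR replicate 3. Within the flow cells Clec4g differed by 1.41 and 0.53, and ZLR replicates 3 and 4 held 1 and 2 reads of it. Stab1 had 32.9, 24.7, 18.8 and 34.2 in ZFR against 16.9, 21.9, 10.5 and 20.9 in ZLR, a log2 fold change of 0.64 (limma adjusted p = 0.375) with overlapping groups. The groups did not overlap for 2 of 9 members, Clec4g by less than 1 read, and for 14.5% of all genes tested.

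**Figure D5:**
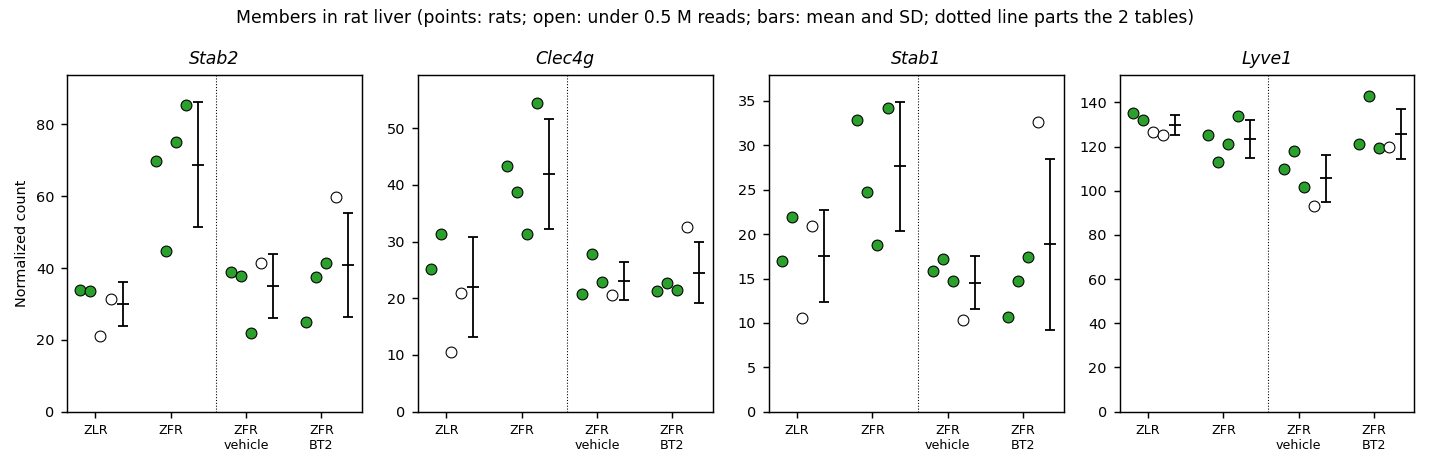
Normalized counts (y axis, from 0) of Stab2, Clec4g, Stab1 and Lyve1 in single rats, with the mean and SD. Open points are libraries under 0.5 M reads, and the dotted line parts the 2 tables, which were normalized separately. For Stab2 the ZFR lie at 44.7 to 85.6 and the ZLR at 21.1 to 34.0.

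The other 6 members analysed in rats were not called between ZFR and ZLR. Lyve1 had 125, 113, 121 and 134 in ZFR and 135, 132, 126 and 125 in ZLR, with overlapping groups (log2 fold change -0.08, 95% interval -0.33 to 0.18). For Dnase1l3 the log2 fold change was -0.45 (-1.09 to 0.18), for Kdr -0.31 (-0.79 to 0.17), for Fcgr2b -0.18 (-0.60 to 0.23), for Oit3 -0.07 (-1.08 to 0.93) and for Cdh5 0.18 (-0.27 to 0.64). Among these 6 the intervals of Oit3 and Dnase1l3 were the widest, and a difference within them was not detectable here. The median over the 9 members was -0.07, against 0.07 over all genes, and it was 0.22 without the libraries under 0.5 M reads. Among the other endothelial lists 1 gene was called, Ltbp4 of the 5 zonal genes tested, a latent TGF-beta binding protein. Ltbp4 rose by 1.54 (SE 0.31, limma adjusted p = 0.0227) from a range of 21.5 to 63.8 in ZLR to 104 to 136 in ZFR. Both ends of its ZLR range came from replicates 3 and 4, where 1 read was worth 10.5 and 10.4 normalized counts. The deep ZLR replicates 1 and 2 had 34.4 and 56.6. The largest values in the other lists, not called, were 1.40 for Egfl7, 1.10 for F8 and 0.94 for Selp. Their means were only 11.8 to 17.9 normalized counts. None of 10 macrophage markers was called (median 0.08, summed level 813 to 1334 in ZFR and 816 to 1035 in ZLR). Marco stood at 2.10 (limma adjusted p = 0.0664), with a ZLR mean of 22.5 normalized counts. Of 9 hepatocyte markers 2 were called lower in ZFR, Cps1 (-0.58, adjusted p = 0.0483) and Ttr (-0.43, adjusted p = 0.0375), and the list summed to 170944 to 262712 normalized counts in ZFR and 216679 to 280662 in ZLR. None of 6 stellate markers was called (median 0.18, summed level 294 to 401 in ZFR and 216 to 326 in ZLR). Dcn stood at 3.00 (limma adjusted p = 0.0670), with a ZLR mean of only 8.06 normalized counts. Cps1, Ttr, Marco and Dcn were named after their values were seen, and the part of these cell types in the value of Stab2 was not tested.

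BT2 against vehicle called 0 of the 9 members and 0% of the 8405 genes tested by limma, where 0 members and 332 genes had an unadjusted p-value under 0.05. Lyve1 alone did not overlap between the groups, as did 2.96% of all genes. It had 121, 143, 119 and 120 normalized counts with BT2 and 110, 118, 102 and 92.9 with vehicle, a log2 fold change of 0.25 (95% interval -0.09 to 0.59, limma adjusted p = 0.898). The exact two-sided permutation test gave p = 0.0286, the smallest possible. Stab2, which had been higher in ZFR than in ZLR, had 24.9, 37.4, 41.5 and 59.8 with BT2 and 39.0, 37.8, 22.0 and 41.3 with vehicle (log2 fold change 0.19, 95% interval -0.49 to 0.88). Within the 2 flow cells the difference in Stab2 was -0.32 and 0.70, and that in Lyve1 was 0.21 and 0.29. The remaining members lay between -0.31 for Cdh5 and 0.30 for Fcgr2b, and the median was 0.08 against 0.0061 over all genes. The other endothelial lists held no called gene either. Their largest log2 fold changes were 1.11 for Adgrl4, -1.48 for Maf, 0.95 for Plvap and 1.87 for Thbd, at means of 10.4 to 16.5 normalized counts, where single reads weigh heavily. None of 10 macrophage markers was called (median -0.09).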

How the data were processed

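Liver RNA was sequenced from polyA+ libraries of 21 mice and 16 rats. The authors aligned the reads with STAR to mm10 or rn6, estimated gene counts in Salmon and applied DESeq2's normalization, so the deposited values are a normalized signal and not counts. Every column was matched to a sample by its title (0 unmatched). Whole reads could not be recovered, as only 73.4% to 92.2% of the low values of a library were whole multiples of 1 read (tolerance 0.02), and no count model was run. Depth was estimated from the most frequent value above 0, taken as 1 read. Depths, SDs and tests do not cover errors in assigning reads to genes. Entries without a name (381 in mice, 201 in rats) or with a repeated name (130 and 4523) were left out.

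Within each table, genes whose mean reached 10 normalized counts were compared on log2(normalized count + 1) with limma 3.58.1 (lmFit, eBayes with a trend, R 4.3.3), with Benjamini-Hochberg adjustment over all genes tested. Fold changes on this scale can understate or overstate those of low genes. In rats F8 had a mean of 13.4 with BT2 and 11.8 with vehicle, yet a log2 fold change of -0.41. Mouse calls used the limits given above for p, adjusted p, fold change and mean, after the study's methods, and rat calls an adjusted p under 0.05. Single members were also compared by the exact two-sided permutation test. The scripts were tested on simulated data. Annotation and 3′ UTRs came from GENCODE M21 (GRCm38) and miRNAs from RefSeq.

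The members, gene lists and tests were chosen with earlier results of these data known. Named are all 10 members and, from 4 endothelial lists, the called genes or else the gene with the largest log2 fold change, and the 8 genes most like the members' mean. Flow cells were read from the sample descriptions. Tried as alternatives were TMM scaling, a pseudocount of 10, no minimum mean, sample quality weights, flow cell or background as a covariate, a replicate block, precision weights for rats, an adjusted p under 0.05, and leaving out each library. Fits by background, the comparisons of the backgrounds in response and in level, and fits without rat libraries under 0.5 M reads were added after seeing the data.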

Additional observations from a re-analysis of the deposited data

Results flagged for a closer look

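Among 76 sets of a member and a group, 5 held a library whose gap to its nearest neighbour was large for the range of its group (Dixon's criterion at 95%). Chance alone gives about 1 in 20, or 3.8 of 76, so the number of such libraries is close to that level. Fcgr2b of the saline-treated mice labelled L-Sirt1 KO was 2966 in replicate 4 and 3195 to 3205 in the other 3. Stab2 of vehicle-treated ZFR was 22.0 in replicate 3 against 37.8 to 41.3. Cdh5 of vehicle-treated ZFR was 64.4 in replicate 4, on 6 reads, against 30.2 to 33.1. Lyve1 of BT2-treated ZFR was 143 (142.8) in replicate 2 against 119 to 121. Clec4g of BT2-treated ZFR was 32.6 in replicate 4, on 6 reads, against 21.4 to 22.7. Saline replicate 4 of the mice labelled L-Sirt1 KO is also a library without which the call on Lyve1 was lost.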

How the results depend on the processing

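The counts of genes called moved most. In WT/Floxed mice the 688 genes became 396 with no minimum mean, 1308 with sample quality weights, 56 with the replicate block, 206 at an adjusted p under 0.05 and 88 in wild-type mice alone, and members called fell from 1 to 0 in the fits with no minimum mean, the flow cell covariate, the replicate block, an adjusted p under 0.05 and wild-type mice alone. In mice labelled L-Sirt1 KO the 297 genes became 160 with no minimum mean, 804 with quality weights, 103 with the flow cell, 145 with the replicate block and 37 at an adjusted p under 0.05, and members called fell from 2 to 1 with the flow cell or an adjusted p under 0.05, with Stab1 the one that held. For ZFR against ZLR the 367 genes became 241, 1169, 221 and 615 (no minimum mean, quality weights, replicate block, precision weights), and members called fell from 1 to 0 with no minimum mean, the flow cell, the replicate block or without the libraries under 0.5 M reads. The members' median of -0.07 there became 0.29 with quality weights and 0.22 without those libraries. BT2 called 1 gene in place of 0 with a pseudocount of 10, with quality weights or without the shallow libraries. The interaction called 1220 genes with quality weights, 19 with the flow cell and 0 with the replicate block, against 7. Leaving out 1 library at a time gave 381 to 1006, 77 to 426, 225 to 379, 0 to 2 and 0 to 233 genes (WT/Floxed, L-Sirt1 KO, ZFR, BT2, interaction), 0 to 1, 1 to 2, 0 to 1 and 0 members, and members' medians of -0.21 to -0.06, -0.10 to -0.05, -0.12 to 0.23 and -0.06 to 0.17. The cause of these shifts was not tested. In the replicate block the call on Lyve1 in WT/Floxed mice was lost (-0.60, adjusted p = 0.632), as was that on Stab2 (1.16, adjusted p = 0.0999), and that on Stab1 in mice labelled L-Sirt1 KO held (-0.53, adjusted p = 0.113). In no comparison did the deviations of every same-numbered pair correlate above 0.1 (range -0.28 to 0.24), so the block pairs libraries by number alone. No member that was called changed sign. No rat library lay under 0.1 of its table's median depth, so a fit without such libraries gave no value of its own.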

Other observations

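The 2 sets of untreated or vehicle-treated ZFR differ in age, handling and table, so their values are set side by side with no comparison. As parts per 1e6 of a library's summed normalized counts, Stab2 was at 24.3 to 44.4 in ZFR aged 5.5 months, at 11.3 to 20.7 in vehicle-treated ZFR aged 3 months and at 10.6 to 16.9 in ZLR. Clec4g was at 15.8 to 28.2, 10.3 to 13.8 and 5.31 to 15.7 in the same order, and Lyve1 at 60.9 to 69.4, 46.5 to 58.8 and 62.5 to 66.4. All 4 tables were normalized separately.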
